A study of Sus scrofa with 12 samples.

Results

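The long non-coding RNA (lncRNA) genes of the RefSeq annotation of the pig genome, build Sscrofa11.1, were followed in 12 libraries of the loin muscle longissimus dorsi (LD), each from another Iberian pig. A gene was included if the annotation gives it the biotype lncRNA and if it had an FPKM above 0 in at least 1 of the 12 libraries. FPKM counts fragments relative to the length of the transcript and to the total of mapped fragments of the library. This was the case for 1045 of the 5428 lncRNA genes on the chromosomes (19.3%), while 13780 of 19560 protein-coding genes (70.4%) and 15016 genes of any biotype had a value. The genes were selected on their FPKM in these same files, so that having a value is the condition of inclusion and not a result. The least abundant of them was LOC110262125, at 0.122 FPKM in its only library, and the 4383 lncRNA genes left out were listed at 0 in every library.

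The pigs were castrated males of a closed purebred population, slaughtered at about the same age after free-range fattening on acorns and grass. The 6 pigs of the H group had high and the 6 of the L group had low estimated breeding values (EBV) for intramuscular fat (IMF), and no other treatment or genotype separates the groups. The labelled IMF ran from 10.62 to 13.8% in H and from 1.7 to 2.28% in L. The paper gives a mean IMF for L above this labelled range, while its mean for H lies within that of H. RNA of each pig was sequenced as 1 library of paired 76-base reads; fattening and slaughter took place in batches, and the labels do not say which pig was in which.

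LncRNA genes are transcribed, and mostly spliced, without coding for a protein. They are commonly less abundant and more restricted in expression than protein-coding genes, and many lie next to a protein-coding gene, start at the same promoter in the other direction, or run antisense to it. Some act in the nucleus on chromatin or RNA processing, others are only known as the precursors of microRNAs (miRNAs), and for most pig genes of this biotype no role is known.

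Sequences were read from Sscrofa11.1 for the 3 stretches on which the results below turn. LOC102162288 on chromosome 5 was the gene with the clearest difference in listing between H and L. Its strand in the unstranded reads is known only from its intron, which is shown with 20 bases of each exon at chr5:64105496-64105742 on the minus strand, the first and last intron bases (GT and AG) in capitals.
LOC102162288 intron: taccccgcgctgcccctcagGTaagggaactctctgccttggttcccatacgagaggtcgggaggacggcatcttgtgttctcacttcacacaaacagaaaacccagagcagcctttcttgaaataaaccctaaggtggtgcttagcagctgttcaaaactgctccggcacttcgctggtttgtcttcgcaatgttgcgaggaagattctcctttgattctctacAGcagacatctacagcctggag
LOC110261125 on chromosome 6 had the highest median level of all, and nearly all of it lay on 1 short stretch of the plus strand, at chr6:85649448-85649553.
LOC110261125 short transcript: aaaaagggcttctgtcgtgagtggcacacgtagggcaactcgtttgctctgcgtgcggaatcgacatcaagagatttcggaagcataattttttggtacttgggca
LOC110261182, also on chromosome 6, holds the hairpin of MIR133A-2 at chr6:106998899-106998971 on the minus strand, with the seed (bases 2 to 8) of the mature miR-133a-3p in capitals.
MIR133A-2 hairpin: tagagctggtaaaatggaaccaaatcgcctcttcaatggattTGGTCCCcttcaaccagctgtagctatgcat

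The label lncRNA was contradicted by the gene's own name for a part of the members. Of the 1045 genes 993 carried a LOC number and 52 another symbol. One of these was MEG3, an imprinted lncRNA, and the other 51 had symbols of protein-coding genes, such as GSN (gelsolin), EIF4B and EIF3B (translation initiation), SEM1 and POMP (proteasome), and CD99, a cell surface protein. The annotation models only non-coding transcripts for these genes on this build. They were few but abundant, and held 28.0 to 38.4% of the summed lncRNA level of a library. Some results below are therefore given with and without them.

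The transcripts behind the values matched the annotation to different degrees. Of the 1045 genes 726 had at least 1 spliced transcript in some library, and 350 (33.5%) had 1 that held a complete annotated intron chain. A further 291 rested on unstranded transcripts of a single exon, which could come from either strand. Where a gene was listed, its transcripts covered 50.5% of its exonic bases in the median (quartiles 25.8 and 80.0%). For 148 genes (14.2%) less than 50% of the level lay inside the annotated exons, because the assembled transcripts ran on beyond the gene.

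LOC110261125, which starts next to TAF12, a subunit of the general transcription factor TFIID, led the members in level. It had 254 FPKM in the lowest H library, 755 in the median and 1043 in the highest, against 3.20, 292 and 475 in L. The L1 and L4 libraries stood far below all others at 16.1 and 3.20 FPKM, and the groups overlapped. In 10 of the 12 libraries its level came from a transcript of 105 to 135 bases over the stretch shown above, and such transcripts made up 99.6% of the FPKM of the gene. The annotation used here holds no small nuclear RNA genes. In the human genome the gene of U11, a small nuclear RNA of the minor spliceosome, lies beside TAF12, and whether this stretch is its pig counterpart was not tested.

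The second and the sixth gene by median level carry only LOC numbers. LOC102163816 had 284 FPKM in the lowest, 391 in the median and 501 in the highest H library, and 119, 316 and 427 in L. LOC100513133 had 59.8, 103 and 501 FPKM in H and 66.5, 155 and 346 in L. The groups overlapped for both genes, and H1 alone set the upper end of LOC100513133 in H. Of the FPKM of LOC102163816, 94.9% came from unstranded transcripts.

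Of the 10 genes with the highest median level 5 carried protein names, CD99, SEM1, GSN, EIF4B and POMP, with medians over the 12 libraries of 223, 158, 151, 92.3 and 91.3 FPKM. CD99, annotated on chromosome Y here, took 80.9% of its FPKM from transcripts under 200 bases. LOC110260651 and LOC106505720 completed the list. Of the FPKM of LOC110260651, 23.0% lay inside its annotated exons. LOC106505720 had 2 separate ranges of values, the lower with 4 of the 6 H and 1 of the 6 L pigs. It was at 11.7 to 16.4 FPKM in H1, H2, H3, H5 and L4 and at 56.1 to 187 FPKM in the other 7 libraries. The group medians were 14.4 FPKM in H and 92.5 in L, and the difference of -1.40 ± 0.755 on the log2 scale did not pass the adjusted threshold (SE, limma, adjusted p = 0.727).

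**Figure D1:**
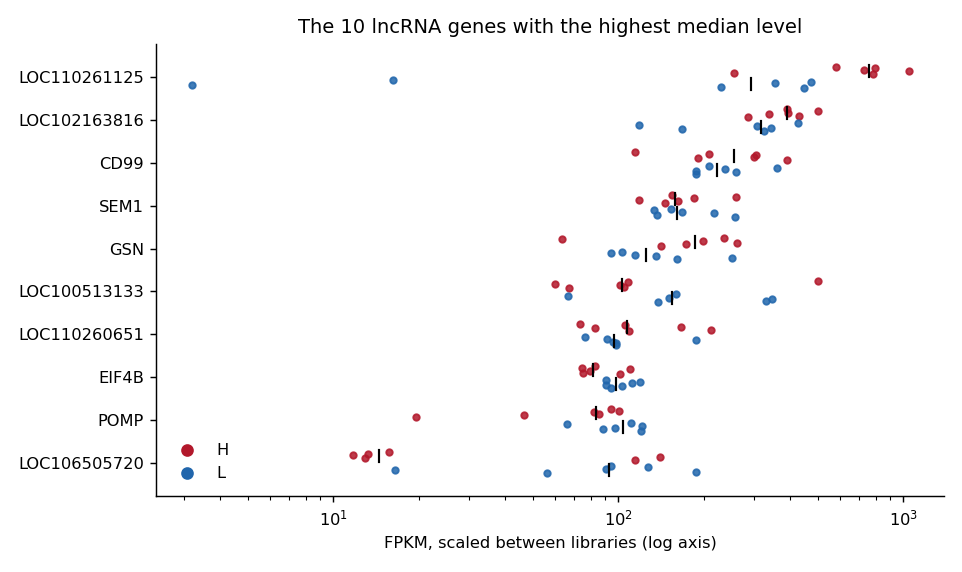
FPKM scaled between libraries, on a log axis, of the 10 lncRNA genes with the highest median. Points are single pigs (H red, L blue) and black bars the group medians. LOC110261125 spans 3.20 to 1043 FPKM, and LOC106505720 falls into 2 ranges.

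LncRNA genes were less abundant than protein-coding genes in each library. The median over the listed lncRNA genes was 0.721 to 1.13 FPKM per library, and that over the listed protein-coding genes 3.51 to 3.93 FPKM. The mean difference within a library was -2.02 ± 0.149 on the log2 scale (SD, n = 12 libraries), with the lncRNA genes lower in 12 of 12 (exact two-sided sign-flip test, p = 0.000488, the smallest it can give). Without the 52 genes with other symbols it was -2.20. Between 14.8 and 20.8% of the listed lncRNA genes exceeded the median protein-coding gene of their library.

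They were also less recurrent. Of the 1045 genes 193 (18.5%) were listed in all 12 libraries and 221 (21.1%) in 1, while of the protein-coding genes with a value 74.3% were listed in all 12 and 3.94% in 1. The lncRNA shares and medians in this paragraph include the 52 genes with other symbols. Most of these were listed in all 12 libraries, among them GSN, EIF4B and EIF3B. Values without them are not given here. Recurrence went with level. The lncRNA genes found in all 12 libraries had a median of 2.54 FPKM and covered 69.1% of their exonic bases, and those found in 1 library had 0.355 FPKM and covered 24.7%. Protein-coding genes found in 1 library had a similar median of 0.301 FPKM.

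**Figure D2:**
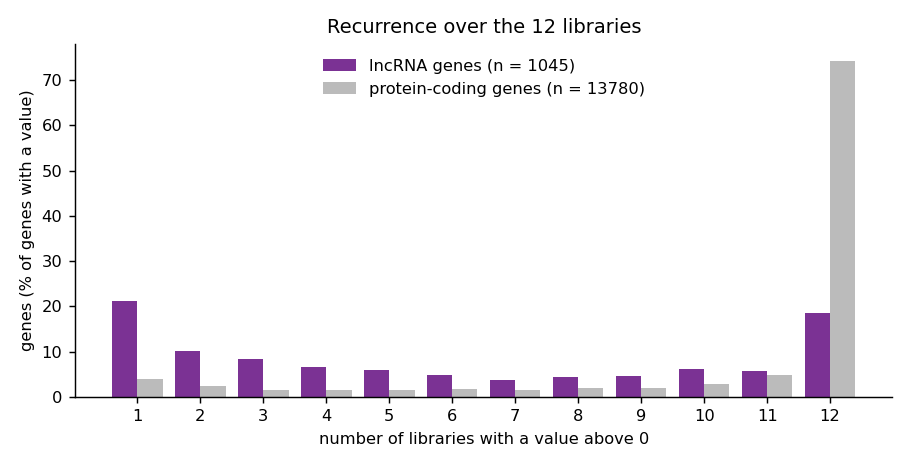
Share of the 1045 lncRNA genes (purple) and of the 13780 protein-coding genes (grey) that had a value above 0 in 1 to 12 libraries, in percent of the genes with a value. The lncRNA genes fall to both ends, with 21.1% in 1 library and 18.5% in 12, whereas 74.3% of the protein-coding genes lie at 12.

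The position beside protein-coding genes, taken from the annotation alone, went with the share of lncRNA genes that had a value. It was highest for divergent genes, which start within 1000 bases of a protein-coding gene on the other strand, with 173 of 513 (33.7%). Antisense genes, which share exonic bases with a protein-coding gene on the other strand, followed with 276 of 877 (31.5%). Of the genes within 5000 bases of a protein-coding gene 122 of 530 (23.0%) had a value, and of those overlapping one on the same strand 39 of 198 (19.7%). Of those overlapping one on the other strand without shared exonic bases, and not divergent, 110 of 711 (15.5%) had a value. Intergenic genes came last with 325 of 2599 (12.5%). Once listed, 25.4% of the genes within 5000 bases, 24.0% of the intergenic and 22.5% of the divergent genes were found in all 12 libraries. The shares were lower in the 3 overlapping classes, with 9.42% of the antisense genes, 10.3% of those on the same strand and 13.6% of those on the other strand without shared exonic bases. The intergenic genes include CD99, SEM1, GSN, EIF4B and POMP. Members had a median exonic length of 2775 bases and the lncRNA genes without a value 1756 bases.

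A value of 0 had different meanings along the genome. Of the 6269 member values listed at 0, 3937 (62.8%) had no transcript over any exonic base. In 575 (9.17%) at least 50% of the exonic bases were covered by transcripts that belonged to another gene or strand, 351 of them by transcripts of the other strand. Such covered zeros made up 15.9% of the zeros of antisense genes and 3.75% of those of intergenic genes. Cufflinks can take the strand of a spliced transcript from its splice sites, but some transcripts of a single exon were listed with a strand as well. What that strand rests on was not tested, and the libraries do not keep the strand of the RNA. Reads over the shared bases of an antisense pair can therefore not be told apart, and a gene is called listed at 0 here rather than absent.

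The files hold 9.88 to 17.6 gigabases of transcript coverage per library, without read counts. They list 35094 to 44609 transcripts in H and 30535 to 36061 in L (exact permutation test, two-sided, p = 0.00866), and 9801 to 16829 unstranded ones in H against 6892 to 10987 in L (p = 0.013 by the same exact test). L3 had the fewest and H4 the most of both. The 7 annotated muscle fibre markers were listed in all 12 libraries. Of the 8 adipocyte markers 2 were higher in H at an unadjusted p under 0.05 in limma and none lower, and their summed FPKM ran from 131 to 231 in H and from 76.6 to 138 in L, with LEP at 0 in 5 libraries. Of the 3 annotated erythroid markers 2 were higher in H at an unadjusted p under 0.05, and their summed FPKM ran from 85.4 to 299 in H and from 73.1 to 162 in L, a difference of 0.96 on the log2 scale (exact permutation p = 0.0238) beside 0.59 for the adipocyte markers (exact permutation p = 0.00649). In bulk tissue fewer cells of a type and less RNA per cell cannot be told apart.

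More lncRNA genes reached 0.5 FPKM in H than in L. The number was 383 in the lowest H library, 384.5 in the median and 403 in the highest, against 299, 366 and 374 in L. Every H library lay above every L library, and the means of 388 ± 7.63 and 355 ± 28.5 (SD, n = 6 pigs each) differed by 33.3 genes (exact two-sided permutation test, p = 0.00216, the smallest that 6 against 6 can give). With the genes of other symbols left out the difference was 33.2, and without H4 and L3 it was 22.8 (exact permutation p = 0.00794). With stranded transcripts alone it was 14.7 genes (exact permutation p = 0.119), and with transcripts that share at least 50% of their bases with the gene 18.8 (exact permutation p = 0.0541). Protein-coding genes at 0.5 FPKM or more numbered 11248 to 11563 in H and 11051 to 11389 in L (exact permutation p = 0.0476). The number of transcripts and the adipocyte and erythroid markers moved with the groups as well, and their part in this difference was not tested.

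The number of lncRNA genes listed at any level ran from 498 to 635 in H (median 543) and from 375 to 552 in L (median 505.5). The ranges overlapped, and the difference of 58.2 genes did not pass the exact permutation test (p = 0.0844). It was 17.8 genes without H4 and L3. The summed FPKM of the lncRNA genes was 3400 to 4377 in H (median 3798) and 3037 to 4483 in L (median 3382), with the highest value in L3. The difference of 0.11 on the log2 scale was within the spread of the pigs (exact permutation p = 0.264), was -0.07 without LOC110261125, and was 0.18 without L3 (exact permutation p = 0.0411).

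**Figure D3:**
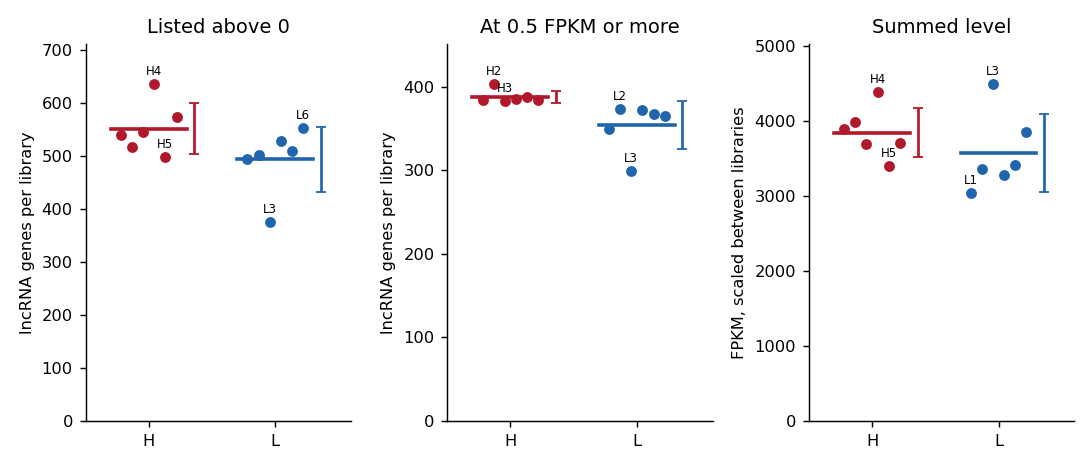
Number of lncRNA genes with a value above 0, number at 0.5 FPKM or more, and summed FPKM for each of the 6 H pigs (red) and 6 L pigs (blue), with the lowest and highest pig of each group named. Horizontal lines are means and error bars SD. The groups are separate only for the number at 0.5 FPKM or more, 383 to 403 against 299 to 374.

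The comparison of levels between H and L took in genes whose mean reached 0.5 FPKM in either group, and was made with limma on log2(FPKM + 0.5), p-values being adjusted by Benjamini-Hochberg over all 12406 genes tested. Of the 1045 lncRNA genes 449 entered this test and 596 were too low. A single lncRNA gene passed an adjusted p of 0.1, LOC102162288, which was also the only gene of any kind to do so (0.00806% of those tested). At an unadjusted p under 0.05 there were 29 lncRNA genes higher in H (6.46%) and 13 lower (2.90%), where all genes gave 3.92% higher and 3.36% lower. The median difference over the 449 lncRNA genes was 0.08 on the log2 scale with 256 above 0, and over all genes it was 0.00. With stranded transcripts alone 18 instead of 29 lncRNA genes were higher, and without H4 and L3 there were 21. The groups did not overlap for 2 lncRNA genes, both with every H library above every L library, where all genes gave 0.314% in that direction and 0.25% in the other. These 2 were LOC102162288 and LOC100526084.

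LOC102162288 has 2 exons on the minus strand of chromosome 5 (chr5:64105001-64105896), 689 exonic bases in all. Its last 212 bases overlap the end of CHD4, a chromatin remodelling ATPase of the NuRD complex, and its start lies 116 bases before that of NOP2, an RNA methyltransferase of ribosome biogenesis. Both neighbours lie on the plus strand. It had 0.588 FPKM in the lowest H library, 0.967 in the median and 1.27 in the highest, and was listed at 0 in all 6 L libraries. The gene was chosen for attention because of this pattern, so its values are a description and not a test. In each of the 6 H libraries the value came from 1 transcript with the annotated intron, whose bases are shown above, and 435 to 478 of the exonic bases.

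The L libraries were not empty at this place. In L1, L4 and L6 a plus-strand exon ran over the whole gene, its intron included. In L4 and L6 it belonged to transcripts of 54 or 55 exons that ran through CHD4 and NOP2, with 10.8 and 10.5 FPKM in sum. In L1 it was a transcript of a single exon with 2.59 FPKM, which shared 926 bases with CHD4 and reached 4 bases into NOP2. That transcript has no intron, so its strand is given as listed. In L3 and L5 only the end of CHD4 reached into the gene, over 16.4 and 13.8% of its exonic bases, as it did in H over 14.7 to 18.7%. L2 had no transcript there, and CHD4 and NOP2 were listed at 0 in it too. GAPDH, further on, was listed at 0 in L2 and also in H4 and H6, in both of which LOC102162288 was listed. NOP2 itself was at 3.64 to 8.55 FPKM in H and at 0, 0, 0, 1.62, 5.54 and 15.4 FPKM in L. Its zeros in L4 and L6 follow from the assignment. The joined transcripts there shared 2777 bases with NOP2 but went to CHD4, with which they shared more.

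When every transcript over the exons of LOC102162288 was counted, whatever its strand, the level was 2.04 FPKM in the lowest H library, 2.79 in the median and 3.12 in the highest, and 0, 2.72 and 10.5 in L. The groups then overlapped, and limma gave a difference of -0.06 ± 0.614 on the log2 scale (SE, adjusted p = 0.983). In H this level includes the end of CHD4, and in L all of it came from plus-strand transcripts. It therefore cannot show whether LOC102162288 itself differed. This way of counting was chosen after seeing the data.

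**Figure D4:**
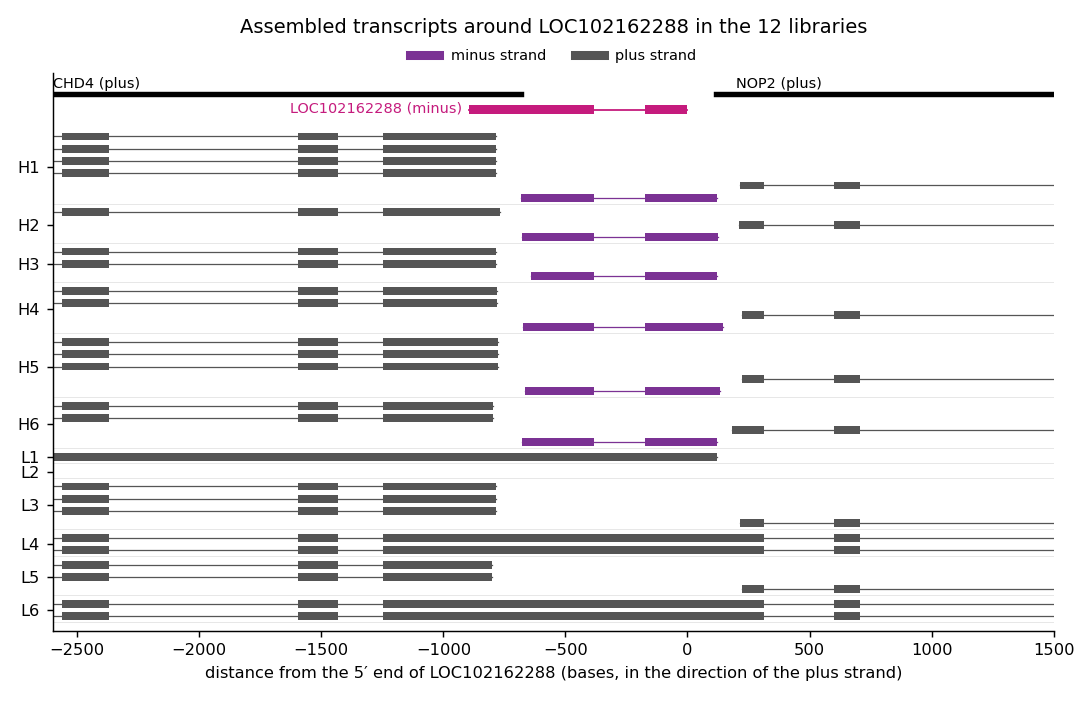
Transcripts assembled in each of the 12 libraries around LOC102162288, with exons as boxes and introns as lines, plotted by the distance in bases from its 5′ end. Minus-strand transcripts (purple) are seen in the 6 H libraries, and in L1, L4 and L6 a plus-strand exon (grey) covers the whole gene.

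LOC100526084 (chr17:32594223-32604508, plus strand) lies 1078 bases from OXT, the gene of oxytocin, which was listed at 0 in all libraries. It had 0.991 FPKM in the lowest H library, 1.32 in the median and 1.70 in the highest, against 0.587, 0.669 and 0.915 in L. All H pigs lay above all L pigs, with a difference of 0.60 ± 0.133 on the log2 scale (SE) that did not pass the adjusted threshold in limma (adjusted p = 0.427). Its transcripts ran far beyond the gene, and 9.97% of their level lay inside its exons. Over those exons, whatever the strand, the values were 0.297 to 1.49 FPKM in H and 0.800 to 1.25 in L, and the difference was -0.34.

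Divergent genes made up 5 of the next 8 genes with higher values in H and 91 of the 449 tested, and this share was not tested. NPHP4 and ARHGAP19 carry protein names, of a cilium protein and of a GTPase-activating protein, and their ranges were 0.794 to 1.31 against 0 to 1.08 FPKM and 2.39 to 3.68 against 1.07 to 2.59 FPKM. With both strands counted over the exons the difference of ARHGAP19 was 0.21 on the log2 scale instead of 0.56. LOC110255408, beside RAB30, a small GTPase of the Golgi, was listed in 5 H libraries at up to 1.27 FPKM and in 2 L libraries at up to 0.219, in each case as an unstranded single exon. Without H1, the H library where it was listed at 0, it also passed the threshold in limma (adjusted p = 0.0606). LOC100518120, beside NUF2, a kinetochore protein, had a median of 2.24 FPKM in H and 0.759 in L.

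LOC102159128 starts 590 bases from DICER1, the RNase that cuts miRNA precursors, in the other direction. It was at 2.02, 2.09, 2.68 and 2.70 FPKM in H1, H5, H2 and H3 and listed at 0 in H4, H6 and the 6 L libraries. DICER1 had 7.74 FPKM in the lowest H library, 9.37 in the median and 13.8 in the highest, and 11.5, 12.8 and 13.8 in L, a difference of -0.38 ± 0.134 on the log2 scale in limma (SE, adjusted p = 0.619). In 1 of the 2 H libraries where the lncRNA gene was listed at 0, at least 50% of its exonic bases were covered by other transcripts. Over its exons, whatever the strand, the values were 1.22 to 7.34 FPKM in H and 0 to 1.59 in L. Neither gene passed the adjusted threshold.

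The other members of this group lie in introns or between genes. LOC110261208, inside PTGER3, a prostaglandin receptor gene, was listed in 5 H libraries at 0.348 to 0.886 FPKM and in L1 at 0.270. LOC106509843, beside HAAO, an enzyme of tryptophan breakdown, had 0.318 FPKM in the lowest H library, 1.08 in the median and 1.92 in the highest, against 0, 0.107 and 0.868 in L. The adjusted p of the genes ranked 3 to 10 lay between 0.553 and 0.570 in limma.

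Among the 10 genes with lower values in H, 3 carried names of abundant protein genes. TMEM159, a lipid droplet assembly factor also known as promethin, had 11.7 FPKM in the lowest H library, 24.6 in the median and 32.5 in the highest, against 31.2, 33.1 and 57.8 in L. Only H4 reached into the range of L. The difference was -0.76 ± 0.239 on the log2 scale (SE, limma, adjusted p = 0.570), and it was also -0.76 when transcripts of both strands were counted over the exons. EIF3B differed by -0.37 ± 0.139 (SE, limma, adjusted p = 0.642) and TGOLN2, of the trans-Golgi network, by -0.45 ± 0.173 (SE, limma, adjusted p = 0.651). With both strands counted these were -0.12 and -0.04. None of the 3 passed the adjusted threshold.

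LOC100525935, which lies 169 bases from PRSS12, was listed at 0 in all H libraries and in L5 and L6, and at 18.8 to 28.3 FPKM in L1, L2, L3 and L4. The transcripts behind it held the annotated introns and had a median length of 175 bases. At least 50% of its exonic bases were covered by other transcripts in all 6 H libraries and in both L libraries where it was listed at 0. Whatever the strand, they had 1.92 to 8.404 FPKM in H and 3.20 to 13.8 in L. LOC102163894, inside SYNE1, the gene of a nuclear envelope protein of muscle, was listed at 10.03 and 10.9 FPKM in 2 H libraries and at 13.7 to 21.96 FPKM in 5 L libraries.

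LOC110261157, LOC106509080, LOC102164640 and LOC110260992 run antisense to CAP1, KIF23, CPEB4 and B3GNT8. LOC110261157 was listed in 2 H and 6 L libraries, with 3.68 to 10.8 FPKM in L, of which 11.06% lay inside its exons. LOC106509080 had a median of 0.518 FPKM in H and 1.33 in L, and KIF23, a motor protein of cell division, had 1.70 and 1.27. With both strands counted over the exons the differences of LOC102164640 and LOC110260992 turned from -1.94 to 0.12 and from -1.01 to 0.62 on the log2 scale, and those of LOC110261157 and LOC106509080 went from -2.38 to -0.60 and from -0.99 to -0.34.

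**Figure D5:**
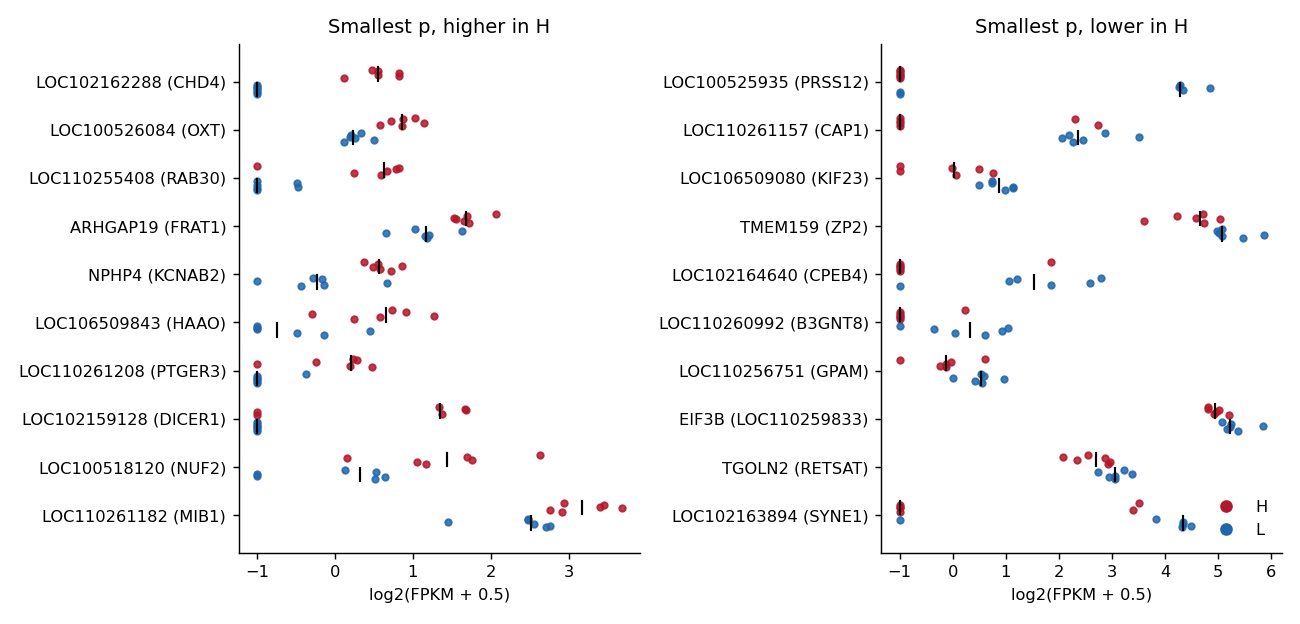
Values on the log2(FPKM + 0.5) scale, where -1 stands for 0 FPKM, of the 10 lncRNA genes with the smallest limma p among those higher (left) and lower (right) in H, with the protein-coding gene beside each in parentheses. Points are single pigs (H red, L blue) and black bars group medians. LOC102162288 and LOC100526084 are the 2 genes whose groups do not overlap.

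Few genes were listed mainly in 1 group. Of the 1045 genes 3 were found in at least 5 H and at most 1 L library, LOC102162288, LOC106506003 and LOC110261208, where 0.226% of all genes with a value were. Another 3 were found in at least 5 L and at most 1 H library, LOC102164640, LOC110260293 and LOC110260992, where 0.113% of all genes were. LOC110260293 runs antisense to PLAG1, a zinc finger transcription factor, and was listed at 0.202 to 0.638 FPKM in 5 L libraries and at 0 in H, while PLAG1 was listed in 3 H libraries and no L library. With both strands counted over its exons it was at 21.99 and 22.4 FPKM in H1 and H4, 0 in the other H libraries and at most 0.113 in L.

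LncRNA genes that hold annotated miRNA hairpins on the same strand numbered 7. The miR-133a hairpin shown above, of a miRNA known for its abundance in skeletal and heart muscle, lies in LOC110261182 (chr6:106995156-107004700, minus strand), itself inside an intron of MIB1, a ubiquitin ligase of Notch signalling. LOC110261182 had 6.28 FPKM in the lowest H library, 8.61 in the median and 12.3 in the highest, against 2.24, 5.22 and 6.29 in L. The ranges touched only at H5 and L5, L3 was the lowest, and the difference of 0.78 ± 0.234 on the log2 scale did not pass the adjusted threshold (SE, limma, adjusted p = 0.570). Of the FPKM of LOC110261182, 16.7% lay inside its annotated exons. Over its exons, whatever the strand, the difference was 0.88 ± 0.225 (SE, limma, adjusted p = 0.351). In all 12 libraries an exon of an assembled transcript on the same strand ran over the whole hairpin, although the annotated exons leave it out.

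The hairpins of 5 of the other 6 hosts were covered by no exon listed on the same strand. Unstranded transcripts have no listed strand and could not count as such cover. They made up all of the level of LOC102161115 and LOC106507351 and most of that of LOC106504205. Whether unstranded transcripts ran over these hairpins was not tested. LOC110259927, the host of MIR365-1, was listed in 4 H libraries at 3.90 to 8.59 FPKM and in 6 L libraries at 1.82 to 13.3 FPKM. LOC102165633 on chromosome X, which holds MIR374A, MIR374B, MIR421 and MIR545, had medians of 1.79 FPKM in H and 1.35 in L. LOC106504205, with MIR125B-1, was at 0.227 to 0.997 FPKM in H and 0 to 0.841 in L. Some of the mature forms from these 3 hosts are given with their seeds in capitals, and the 2 forms of miR-374 shown share theirs. The forms of MIR421 and MIR545 and the 3p forms of miR-374 are left out.
miR-365-3p: tAATGCCCctaaaaatccttat
miR-374a-5p: tTATAATAcaacctgataagtg
miR-374b-5p: aTATAATAcaacctgctaagtg
miR-125b: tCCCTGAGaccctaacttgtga
LOC102161631, with MIR1839, was listed in 5 H and 4 L libraries at up to 1.54 FPKM, and its hairpin was covered in 3 H libraries. LOC102161115, with MIR195 and MIR497, was listed in 2 libraries and LOC106507351, with MIR9817, in 1.

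MEG3 was the single gene of a list of well-known lncRNAs that the annotation names and that had a value. This maternally expressed lncRNA of the DLK1 and RTL1 imprinted region had 0.779 FPKM in the lowest H library, 1.753 in the median and 3.07 in the highest, and 0.681, 0.972 and 2.22 in L. Of its FPKM, 23.2% lay inside its annotated exons. The groups overlapped, with a difference of 0.40 ± 0.273 on the log2 scale (SE, limma, adjusted p = 0.773). RTL1 was listed at 0 in all libraries.

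LncRNA genes beside genes of fat and muscle biology gave few values. Of 24 annotated next to a gene of a lipid and adipocyte list 10 had a value and 4 were tested, of which none was higher and 1 lower at an unadjusted p under 0.05, with a median difference of -0.26 on the log2 scale. That one was LOC110256751, 19110 bases from GPAM, the acyltransferase that starts glycerolipid synthesis, with 0 to 1.03 FPKM in H and 0.4996 to 1.46 in L (-0.66 ± 0.248, SE, limma, adjusted p = 0.642), and the difference was -0.35 with both strands counted. GPAM had medians of 4.76 and 4.98 FPKM. LOC106505669, antisense to CIDEC, a lipid droplet protein of adipocytes, was listed in 4 libraries of each group, with a difference of 0.13 ± 0.549, whereas CIDEC had a median of 2.63 FPKM in H and 0.971 in L. LOC106509908, whose nearest protein-coding gene is LPIN1, a phosphatidate phosphatase 333598 bases away, differed by -0.45 ± 0.535.

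Of 26 lncRNA genes next to immediate early and stress response genes 8 had a value and 4 were tested, and of 16 next to muscle genes 6 had a value and 2 were tested. None of these 6 tested genes reached an unadjusted p of 0.05. LOC100624137 and LOC102168177 lie next to KLF6, a zinc finger factor of the early response, and had medians of 3.54 and 0.481 FPKM in H and 5.98 and 0.268 in L. LOC102159394 partly overlaps MEF2C, a transcription factor of muscle differentiation, on the other strand and shares no exonic bases with it. It had 1.498 to 4.91 FPKM in H and 1.35 to 3.64 in L. LOC110257453, antisense to TNNC2 (fast troponin C), was listed in H4 only.

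The level of a lncRNA gene was compared over the 12 pigs with that of its neighbouring protein-coding gene in 375 pairs in which both were tested. The correlation on the log2 scale had a median of 0.02 and quartiles of -0.22 and 0.29, and 196 pairs (52.3%) were positive. By position class the median lay between -0.11 for genes that overlap on the same strand and 0.05 for divergent pairs. The pair of LOC102162288 with CHD4 gave 0.09 and that of LOC110261182 with MIB1 gave -0.10. CHD4 was at 0 FPKM in L2, 151 in L1 and 10.2 to 18.8 in the other libraries.

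A single pair passed an adjusted p of 0.1 over the 375, LOC110256743 with ANKRD1, a stretch-responsive ankyrin repeat protein of muscle that lies 22607 bases away. Pearson's r was 0.86 (permutation p = 7e-05, adjusted p = 0.0262) and Spearman's rho 0.90 (permutation p = 3e-05, adjusted p = 0.0112), n = 12 pigs. The lncRNA gene was listed in L3 at 3.50, L1 at 1.37, H3 at 0.897, L6 at 0.519 and H5 at 0.501 FPKM, and these were the 5 pigs with the most ANKRD1, from 397 to 2755 FPKM. Without L1 and L3, the pigs farthest from the median, r was 0.68. After subtracting the group means r was 0.85.

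The highest r of all, 0.90 for LOC106507740 with LOC100158115, which it overlaps on the other strand, did not pass. Below that of LOC110256743 followed 0.80 for LOC110257112 with ASB5, 0.79 for LOC110256728 with TRIM35 and 0.79 for LOC100517116 with ST6GALNAC2. The lowest were -0.91 for LOC110259828 with SUN1, -0.88 for LOC110261575 with CFL2, -0.88 for LOC110259893 with SRRM3, -0.73 for LOC110257003 with PSMD14 and -0.73 for LOC106509080 with KIF23. Their adjusted permutation p lay between 0.190 and 0.529. LOC110257112 and LOC110259828 were listed in 1 library each, so that no correlation is left without it. Without the 2 pigs farthest from the median of the lncRNA gene, r was 0.82 for LOC106507740, 0.83 for LOC100517116, -0.90 for LOC110259893, 0.33 for LOC110256728, 0.00 for LOC110261575, -0.78 for LOC110257003 and -0.35 for LOC106509080.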

How the data were processed

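LD muscle RNA of 12 castrated Iberian pigs was sequenced without strand information. The authors trimmed the reads with Trim Galore, aligned them to Sscrofa11.1 with TopHat2 2.1.0 and assembled and quantified transcripts in each library with Cufflinks 2.2.1, and deposited 1 transcript table per library with FPKM values. Their gene annotation was Ensembl. For lncRNAs they mapped and assembled anew with a pig lncRNA database, and reported lncRNAs that differed between H and L. That set was not compared with the members here. RefSeq (release 106) was used because the lncRNA genes were defined by it here. The authors' merged comparison was not used.

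Each transcript on a chromosome was assigned to the RefSeq gene on its strand with which it shared most exonic bases, and unstranded transcripts needed at least 50% of their bases shared. The FPKM of its transcripts were added up for each gene, and median ratios served to scale the libraries to each other. The test between groups, for genes whose mean reached 0.5 FPKM in either group, was limma 3.58.1 (R 4.3.3) on log2(FPKM + 0.5), which understates changes of low genes, and p-values were adjusted by Benjamini-Hochberg over all genes tested, with a threshold of 0.1. The script was tested on simulated data. Numbers and sums per library were compared by exact two-sided permutation tests and pairs by 100000 permutations (Python 3.11.15).

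Named were the 10 tested lncRNA genes with the smallest p in each direction, the 10 with the highest median, LOC102162288, those listed in all libraries of a group and none of the other, those of a list of known lncRNAs, the 3 with the smallest p per list of neighbouring genes, the protein-coding neighbours of all these, and the 5 pairs with the highest and the lowest r. The miRNA hosts and the genes listed in at least 5 libraries of a group and at most 1 of the other lie outside this rule, their values being known when they were picked. The members and lists were chosen with earlier results of these data known. Replicates are separate pigs. The files hold FPKM and coverage but no read counts, and the study's read totals per library were not used, so no counting error is given. The individual numbers did not pair the pigs. The position of 2 abundant genes is not reported here. Alternatives are given with the limits at the end.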

Additional observations from a re-analysis of the deposited data

Results flagged for a closer look

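In 9 cases 1 pig stood apart from the other 5 of its group, with a gap to the nearest that exceeded Dixon's 95% limit of 0.625 of the range. Chance alone gives about 1 such case in 20 groups. The rule was applied to several measures per library and to many named genes, in both groups, so some of the cases can be due to chance. Measures of 1 library, such as the 2 gene counts of L3, are not independent. L3 accounted for 5 of them. It had the fewest lncRNA genes of the L group, 375 listed and 299 at 0.5 FPKM or more, the lowest LOC110261182 (2.24 FPKM), and the highest EIF3B (56.9 FPKM) and LOC110260651 (187 FPKM). H2 had the most lncRNA genes at 0.5 FPKM or more, 403. H1 had the highest ARHGAP19 (3.68 FPKM) and LOC100513133 (501 FPKM) of the H group, and L4 the highest NPHP4 of the L group (1.08 FPKM).

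Outside the levels compared, 3 L libraries and no H library held a plus-strand exon over the whole of LOC102162288. These were L1, where it was a transcript of its own, and L4 and L6, where it joined CHD4 and NOP2. The part of this exon in the listing of LOC102162288 at 0 was not tested.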

How the results depend on the processing

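Low values, strand and single pigs limit these results: the files hold no read counts, and 1 FPKM stood for a listed coverage of 7.50 to 11.5. The 1 lncRNA gene called by limma became 0 at a minimum group mean of 1 FPKM, where LOC102162288 was not tested, 0 with the individual number as a block, and 0 with every transcript over the exons counted whatever its strand. Leaving out 1 pig gave 1 to 2 calls, the second being LOC110255408 without H1. The difference of LOC102162288, whose fitted size depends on the pseudocount, was 1.56 on the log2 scale with the replicate block (limma, adjusted p = 0.559) and -0.059 with both strands counted. Correlations of same-numbered pigs ran from -0.08 to 0.06, so the numbers do not pair them. Genes higher in H at an unadjusted p under 0.05, 29 in the report, numbered 16 at a minimum of 1 FPKM, where fewer genes are tested, and 18 with stranded transcripts only. The difference in genes at 0.5 FPKM or more was 14.7 with stranded transcripts only and 18.8 with 50% of the transcript shared. That in listed genes was 33.3 at a minimum of 0.5 FPKM (exact permutation p = 0.00216), 3.83 with complete annotated intron chains only (exact permutation p = 0.729), and 34.5 to 69.9 without 1 pig, passing 0.05 without H5 (68.9, exact permutation p = 0.0411) or L6 (69.9, exact permutation p = 0.0346). The log2 difference in summed FPKM was 0.070 to 0.18 without 1 pig, passing only without L3. Genes listed mainly in 1 group, 6 in the report, were 3 with stranded transcripts only and 10 at a minimum of 0.5 FPKM, and genes with a value 350 if a complete annotated intron chain was required. Pairs past the adjusted threshold, 1 in the report, were 4 after subtracting group means and 2 by Spearman's rho. Of 458 values for 19 other named genes under 25 alternatives, 455 kept their direction and 1 was called; LOC100526084, LOC102164640 and LOC110260992 turned to -0.34, 0.12 and 0.62 with both strands counted. The cause of these changes was not tested except where stated. Counting both strands and leaving out LOC110261125 were chosen after seeing the data.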
